A study of Mus musculus with 4 samples.

Results

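Immediate early genes and heat shock genes are the subject here, a set of 37 genes out of 31053 in the deposited matrices, chosen by symbol. The choice was made with earlier results of these data known. They comprise 30 immediate early and early feedback genes and 7 genes of heat shock proteins and their co-chaperones. All 37 symbols were found in the files. The cells were dissociated from tibial and femoral epiphyses, which hold articular cartilage, growth plate and marrow. The 4 libraries are a wild type mouse sample (called control) and a sample with the genotype Sox9fl:fl AcanCreERT2/+ (called mutant), each at postnatal day 13 and day 19. The series' design text goes against these sample labels, since it speaks of mice aged 3 months and also of mutants of Sox8 together with Sox9. The sample labels were followed, and every age and genotype below rests on them. In the mutant, both Sox9 alleles are flanked by loxP sites, and 1 Acan allele carries the tamoxifen-dependent recombinase CreERT2, which is active where aggrecan is expressed, chiefly in cartilage. The sources used here do not state the tamoxifen schedule, whether controls received it, the strain or how many mice were pooled per library. Where values come in pairs below, the control is first and the mutant second. Tissue was digested with the enzyme blend Liberase before capture.

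Immediate early genes are transcribed within minutes of a stimulus from factors already present in the cell, without new protein synthesis. The first wave encodes transcription factors of the AP-1, EGR, NR4A and KLF families, and a following set encodes proteins that damp the same signals, such as phosphatases and mRNA decay factors. Heat shock genes are switched on by HSF1 when proteins misfold, and their products are chaperones. In chondrocytes these genes respond to mechanical load, cytokines and injury, and in single-cell work both sets are also known to rise while tissue is held warm in enzyme. Each combination of genotype and age here is 1 library, so genotype, mouse, dissection, digestion and library cannot be told apart at a single age. The p-values come from a fit over both ages and measure how alike the genotype difference is at days 13 and 19, not the spread between mice.

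Short stretches of promoter are shown first, chosen because each holds a match to a motif that was searched for. Not every matching member is shown. Promoters were taken as 250 bases before to 50 bases after the annotated start, from RefSeq on GRCm38.p6, and 30 of the 37 members matched an entry. No entry was matched for Egr1, Egr3, Myc, Hspa8, Ier2, Klf10 or Cebpd. Capitals mark each match of the motif in a stretch, written 5′ to 3′ on the gene's strand, and the first set holds the 2-unit heat shock element GAANNTTC or TTCNNGAA.
Hspa1a, chr17:34972233-34972280, minus strand: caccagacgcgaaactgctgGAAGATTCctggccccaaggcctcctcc
Hspa1b, chr17:34959315-34959362, minus strand: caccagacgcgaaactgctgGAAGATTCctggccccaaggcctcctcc
Hspb1, chr5:135887782-135887829, plus strand: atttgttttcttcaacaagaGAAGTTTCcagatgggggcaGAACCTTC
Dnaja1, chr4:40722324-40722371, plus strand: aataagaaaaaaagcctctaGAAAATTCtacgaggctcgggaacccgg

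The second set shows the palindromic cAMP response element TGACGTCA, which binds the CREB and ATF factors, in 3 feedback genes, and a CArG box, the site of serum response factor, in Zfp36.
Dusp1, chr17:26508588-26508635, minus strand: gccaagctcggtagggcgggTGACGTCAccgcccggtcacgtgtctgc
Ppp1r15a, chr7:45526269-45526300, minus strand: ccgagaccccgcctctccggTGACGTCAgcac
Btg2, chr1:134079294-134079341, minus strand: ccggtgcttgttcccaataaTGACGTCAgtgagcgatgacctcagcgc
Zfp36, chr7:28379257-28379306, minus strand: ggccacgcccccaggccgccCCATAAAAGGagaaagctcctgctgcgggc

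Both strands were searched. A gene was counted when any of its promoter entries held the motif, so the share of 27018 genes is given beside that of 32841 promoters of the same length. The 2-unit heat shock element was present in 7 of the 30 matched members (Dnaja1, Egr2, Hspa1a, Hspa1b, Hspb1, Hsph1 and Jun) and in 16.98% of genes and 15.1% of promoters, and Hspb1 held it at 2 places. A longer heat shock element, in which another unit follows, was present in Hsph1 alone and in 0.663% of genes and 0.603% of promoters, and it contains the 2-unit form. TGACGTCA was present in Btg2, Dusp1 and Ppp1r15a and in 2.03% of genes and 1.79% of promoters. The shorter TGACGT, which it contains, was present in 7 members (Atf3, Btg1, Btg2, Dusp1, Egr2, Fos and Ppp1r15a) and in 8.38% of genes and 7.515% of promoters. The CArG box was present in Egr2 and Zfp36 and in 1.81% of genes and 1.63% of promoters, and the AP-1 site TGANTCA in no member and in 8.98% of genes and 7.81% of promoters. The 2-unit heat shock element and TGACGT were added to the search after the first count. These are matches of letters in a fixed window and show no binding.

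With limits of 500 detected genes and 15% mitochondrial UMIs per barcode, and with doublets removed, 30401 cells remained from libraries of 70507107 to 76080803 UMIs. Clustering, with the 37 genes kept out of the genes used, gave 26 clusters. Chondrocyte-like cells (clusters 0, 1, 5, 8, 9 and 22) numbered 4195 and 1452 in control and mutant on day 13 and 1025 and 1434 on day 19. Different clusters hold this class in the genotypes. Cluster 8, led by Il17b and Ppa1, had 1196 and 300 control cells but 16 and 6 mutant cells, while cluster 22, led by Cryba2 and Mmp13, had 8 and 7 control cells but 596 and 431 mutant cells. Clusters 5, 9 and 22 entered the class by a second rule set after the clusters were seen. It took clusters that the first rule left unnamed, with under 3 markers of any class among their 25 leading genes, at least 10 chondrocyte markers 3-fold above blood cells, and no more markers of another class than of chondrocytes among their 10 leading genes, and it left out clusters of low depth. These 3 clusters had 27, 25 and 18 such chondrocyte markers. Clusters 2, 4, 10, 11 and 15 also had 10 or more and stayed outside. The first rule gave clusters 11 and 15 to osteoblast-like and to fibroblast and tendon-like cells. Cluster 2, with osteoblast and chondrocyte markers, was kept unnamed, as was cluster 10 with a median depth of 0.249 of its libraries' median, and cluster 4 is described below. Sox9 itself was at 359 against 184 CPM, counts scaled to 1000000 UMIs, in these cells on day 13, then 459 against 174 on day 19. Which exons are floxed is not given, so this level does not test the deletion. Pairs of libraries shared 10 to 16 kept barcodes, and the 2 mutant libraries shared 35.

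In chondrocyte-like cells, 15 of the 37 genes rose and 2 fell in mutants over both ages, and 20 did not pass (edgeR, adjusted p under 0.05 over all genes tested). The risen genes were mostly feedback regulators (Dusp1, Ier2, Ier3, Zfp36, Socs3, Gadd45b and Gadd45g) and transcription factors (Junb, Egr3, Nr4a1, Klf6, Klf10 and Cebpb), with the inducible HSP70 genes Hspa1a and Hspa1b. Jund and the co-chaperone gene Dnajb1 fell. Of all 13959 genes tested in these cells 18.3% were called and 10.3% were called higher, beside 45.9% and 40.5% of the members. The median fitted log2 change of the members was 0.32, beside 0.01 for all genes. On plain CPM the median log2 ratio of the 36 members at 10 CPM or more was 0.59 on day 13 and 0.39 on day 19, beside 0.25 and 0.08 for all genes at that level. TMM scaling moved the member medians to 0.30 and 0.22, so plain ratios lie above the fitted changes. Folds and log2 ratios below are plain, while log2 changes and p-values come from the fit. Both mutants exceeded both controls for 26 members, which 48.1% of all tested genes also did.

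**Figure D1:**
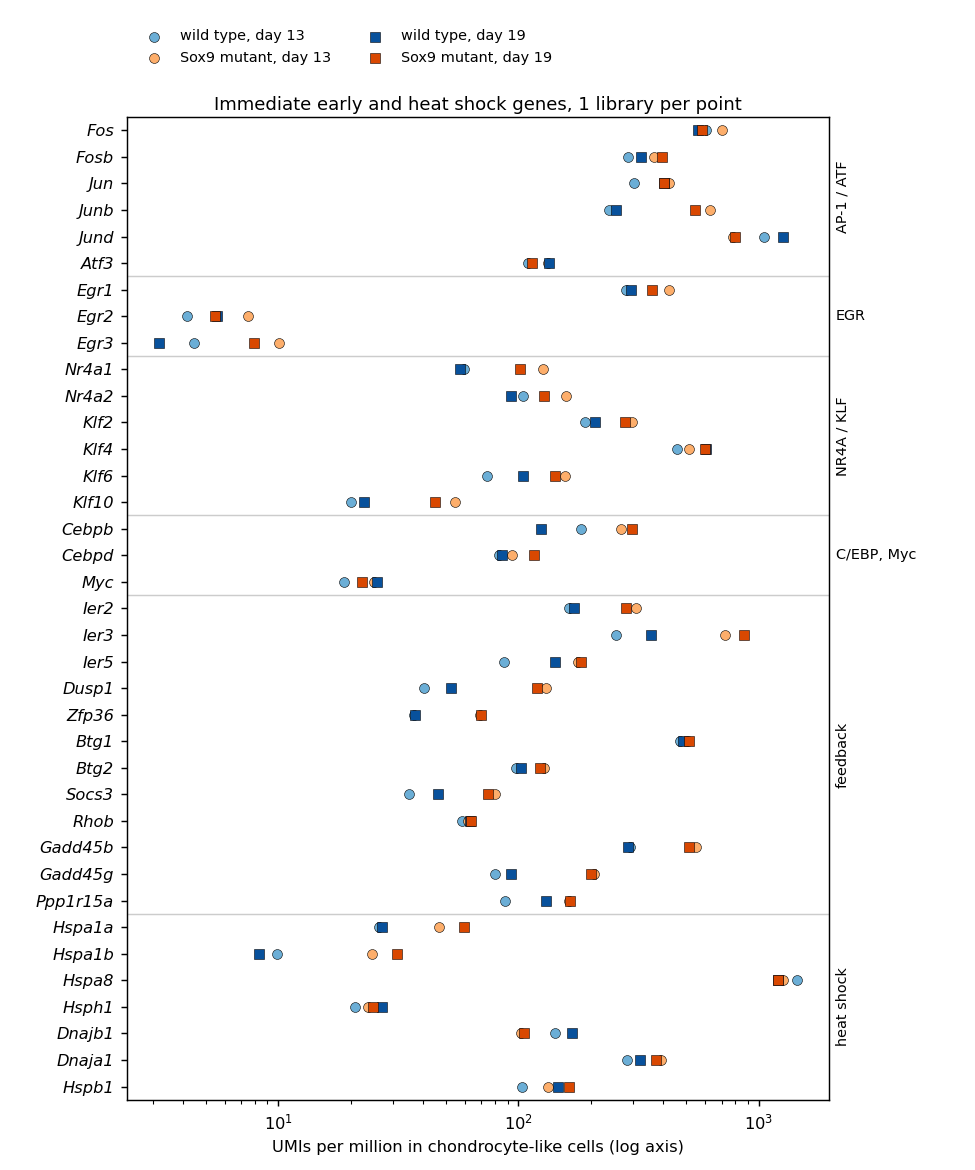
CPM of each of the 37 genes in chondrocyte-like cells on a log axis, 1 point per library, coloured by genotype with the marker showing age. Junb, Dusp1, Ier3 and Hspa1b show both mutant points to the right of both control points, Jund and Dnajb1 the reverse, and the points of Fos and Hspa8 lie close together.

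Among the AP-1 and ATF genes, whose proteins pair into the dimers that bind AP-1 sites, 1 of 6 rose and 1 fell. Junb, a JUN family member that often restrains c-Jun, stood at 237 against 629 CPM on day 13, then 255 against 541 on day 19. Both mutant libraries were above both controls, 2.65-fold and 2.13-fold, and the fitted log2 change was 1.036 ± 0.135 (SE, n = 4 libraries, adjusted p = 0.00192). Jund, the JUN member with the steadiest basal expression, went the other way, from 1054 to 784 CPM on day 13, then 1261 to 799 on day 19. Its mutant libraries lay below both controls, 1.34-fold and 1.58-fold, with a fitted change of -0.75 ± 0.149 (adjusted p = 0.0119).

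Fos, the partner of the JUN proteins and the standard marker of recent stimulation, was at 606 against 706 CPM on day 13, then 560 against 581 on day 19. Its libraries overlapped between genotypes, and the fitted change was -0.07 ± 0.137 (adjusted p = 0.754), opposite in sign to its plain ratios. The day 13 log2 ratio of Fos was 0.22 (95% counting interval 0.19 to 0.25) and that on day 19 was 0.05 (0.01 to 0.09). The other AP-1 members that did not pass had fitted changes of 0.10 for Fosb, 0.04 for Jun and -0.19 for Atf3, a stress-induced factor of the ATF family. Atf3 was higher in the mutant on day 13 (109 against 132 CPM) and lower on day 19 (134 against 113).

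The EGR genes encode zinc finger factors induced by growth factor signalling. Egr3 rose, from 4.45 to 10.03 CPM on day 13, then 3.18 to 7.91 on day 19, with a fitted change of 1.02 ± 0.214 (adjusted p = 0.0153). These levels rest on 61 to 248 UMIs per library, and Egr3 did not pass with DESeq2, with cells thinned to 2000 UMIs or with a minimum of 1000 genes. Egr1 was at 280 against 423 CPM on day 13, then 294 against 360 on day 19, both mutants above both controls, and did not pass (0.23 ± 0.130, adjusted p = 0.264). Egr2 was at 4.16 against 7.51 CPM on day 13, then 5.57 against 5.45 on day 19 and overlapped between genotypes.

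Of the 6 orphan nuclear receptor and Krüppel-like factor genes, 3 rose and none of them fell. Nr4a1, an orphan receptor controlled mainly by its own abundance, stood at 59.2 against 126 CPM on day 13, then 57.3 against 101 on day 19, a fitted change of 0.75 ± 0.121 (adjusted p = 0.00513). Klf10, a TGF-beta induced repressor, went from 20.1 to 54.7 CPM on day 13, then 22.8 to 45.1 on day 19. It was 2.72-fold and 1.98-fold higher on plain CPM (adjusted p = 0.0026 in the edgeR fit). Both genes had mutant libraries clear of both controls. Klf6 was at 74.2 against 157 CPM, then 105 against 143, with a smaller fitted change (0.55 ± 0.147, adjusted p = 0.0376), and did not pass with DESeq2.

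The other members of that group did not pass. Klf4, a factor of the superficial zone of cartilage among other tissues, overlapped between genotypes, at 455 against 513 CPM on day 13, then 604 against 597 on day 19. Klf2, its close relative, was at 189 against 296 CPM on day 13, then 208 against 278 on day 19, and Nr4a2 at 105 against 158 CPM, then 93.0 against 128. Mutants of Klf2 and Nr4a2 lay above both controls, with fitted changes of 0.32 ± 0.123 and 0.32 ± 0.117 that missed the threshold (adjusted p = 0.115 and 0.105).

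Cebpb, a leucine zipper factor of inflammatory and hypertrophic gene expression, rose from 183 to 268 CPM on day 13, then 124 to 296 on day 19. Its adjusted p of 0.0495 lay at the threshold, and it was lost with DESeq2 size factors, with thinned cells and with a minimum of 1000 genes. Its relative Cebpd was at 82.8 against 93.8 CPM on day 13, then 85.3 against 116 on day 19, and Myc, a growth regulator, at 18.7 against 25 CPM, then 25.7 against 22.2. Neither passed, and Myc overlapped between genotypes.

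The feedback genes held the most calls, 7 of 12, all higher in mutants. Dusp1, a phosphatase that switches off p38 and JNK kinases, went from 40.4 to 130 CPM on day 13, then 52.6 to 119 on day 19. It was 3.22-fold and 2.27-fold higher, with log2 counting intervals of 1.60 to 1.77 and 1.07 to 1.29 and a fitted change of 1.23 ± 0.136 (adjusted p = 0.000998). Ier3, an NF-kB and ERK regulated survival protein, went from 255 to 721 CPM on day 13, then 355 to 865 on day 19, 2.83-fold and 2.44-fold higher (fitted 1.18 ± 0.137, adjusted p = 0.00118). Gadd45g, a stress protein that acts through p38 and regulates hypertrophic gene expression, went from 79.7 to 206 CPM and from 92.7 to 200 (fitted 1.03 ± 0.121, adjusted p = 0.00125). In each of these genes the lowest mutant library was above the highest control.

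The remaining risen feedback genes changed by 0.62 to 0.74 on the fitted log2 scale. Gadd45b, the relative of Gadd45g, stood at 290 against 547 CPM on day 13, then 285 against 511 on day 19. Socs3, the inhibitor of JAK and STAT signalling, was at 34.9 against 79.8 CPM, then 46.2 against 74.8. Zfp36, tristetraprolin, which sends AU-rich cytokine mRNAs to decay, was at 36.7 against 69.4 CPM, then 36.9 against 69.9, the most even of the differences between the ages. Ier2, a nuclear protein of the first wave, was at 162 against 309 CPM, then 171 against 281. Their adjusted p values were 0.0116 for Gadd45b, 0.00906 for Socs3, 0.00753 for Zfp36 and 0.0122 for Ier2.

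The other 5 feedback genes did not pass, and their fitted changes ran from -0.16 for Rhob, a small GTPase, to 0.48 for Ier5, which encodes a partner of HSF1 (adjusted p = 0.0645). Ppp1r15a, or GADD34, which restores translation after stress, was at 88.2 against 162 CPM on day 13, then 130 against 164 on day 19 (0.40 ± 0.138, adjusted p = 0.0869). The antiproliferative genes Btg1 and Btg2 had fitted changes of -0.12 and 0.11. Btg1 was at 472 against 506 CPM on day 13, then 483 against 514 on day 19.

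The heat shock genes did not move as 1 group: 2 of 7 rose, 1 fell and 4 did not pass. Hspa1b stood at 9.87 against 24.5 CPM on day 13, then 8.28 against 31.3 on day 19, 2.48-fold and 3.78-fold higher, with a fitted change of 1.38 ± 0.202 (adjusted p = 0.00317). Hspa1a was at 26.3 against 46.7 CPM, then 27.0 against 59.4 (0.77 ± 0.152, adjusted p = 0.0119). Both encode the stress-inducible HSP70, from neighbouring genes on chromosome 17 (34969190 to 34972156 for Hspa1a and 34956436 to 34959238 for Hspa1b, GRCm38, minus strand). The 250 bases before their starts were 98.8% identical, which the stretches shown above illustrate, and their annotated transcripts 84.3%. Over the last 300 transcript bases, from which most 3′ tags come, they were 50.1% identical, while reads that fall further upstream could belong to either copy, so the level of each is uncertain.

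Dnajb1, the HSP40 partner of HSP70 and itself an HSF1 target, fell from 142 to 102 CPM on day 13, then 167 to 105 on day 19, 1.39-fold and 1.59-fold lower (fitted -0.78 ± 0.119, adjusted p = 0.00381). The constitutive HSP70 gene Hspa8 was at 1441 against 1263 CPM on day 13, then 1208 against 1207 on day 19 and did not pass (-0.31 ± 0.166, adjusted p = 0.245). Hspb1, a small heat shock protein, was at 103 against 132 CPM, then 146 against 162, and Dnaja1, another HSP40, at 283 against 392, then 320 against 375. Hsph1, the HSP110 nucleotide exchange factor, was at 20.8 against 23.6 CPM, then 27.1 against 24.7. The summed level of the 7 heat shock genes was 2026, 1983, 1904 and 1964 CPM in control and mutant on day 13 and control and mutant on day 19. On plain CPM that sum, set mostly by Hspa8, overlapped between genotypes. The plain sum of the 30 immediate early genes was 5773 and 8270 CPM on day 13 and 6523 and 8100 on day 19. Neither sum is scaled by the TMM factors, 0.892 and 1.089 on day 13 and 0.968 and 1.063 on day 19. Division by these factors raises both control sums and lowers both mutant sums, so the overlap holds for plain CPM alone.

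**Figure D2:**
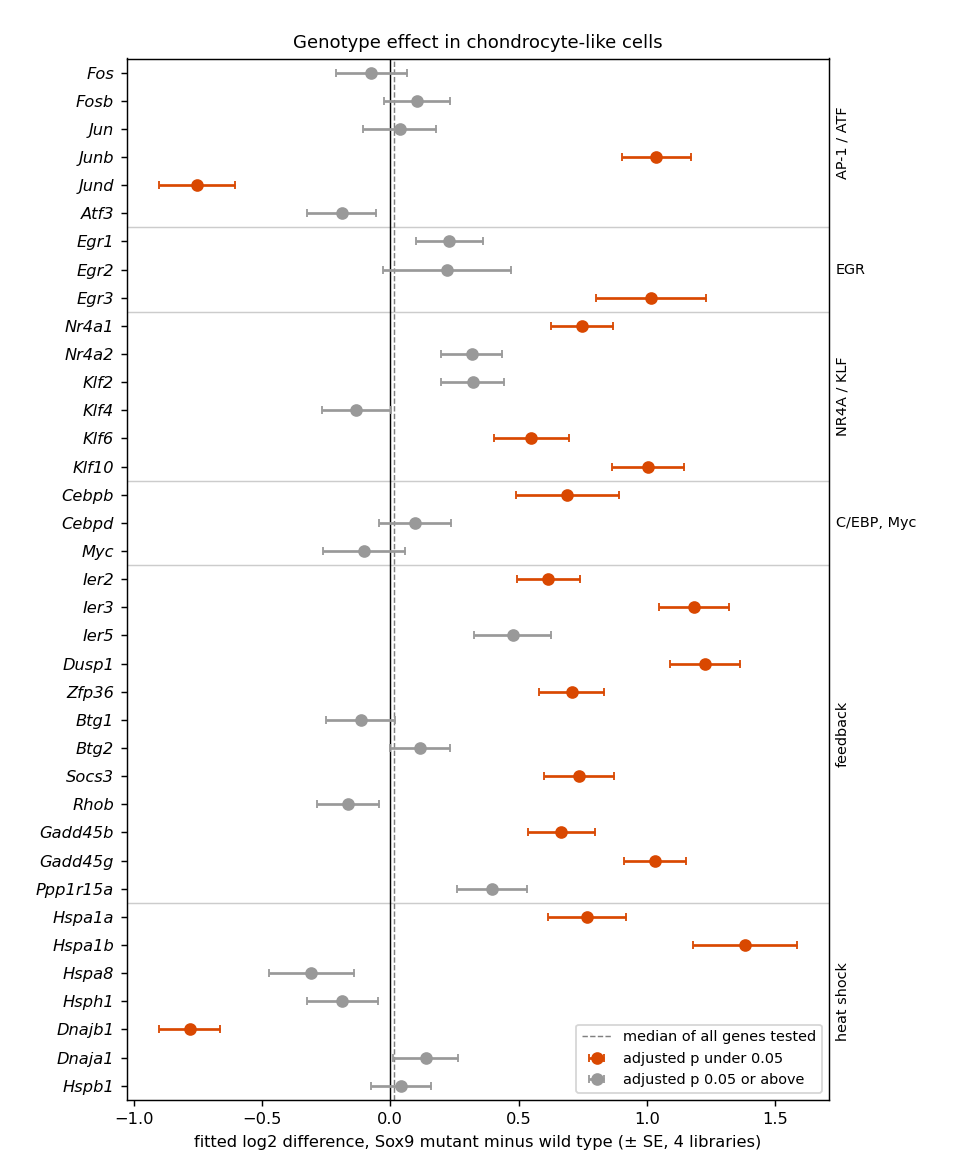
Fitted log2 difference between mutant and wild type chondrocyte-like cells for each of the 37 genes, grouped by role, with bars of 1 SE from 4 libraries. Values run from -0.78 for Dnajb1 to 1.38 for Hspa1b, and the 12 feedback genes have the highest median of the 6 groups, 0.64.

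With age dropped from the model, edgeR called 14 of the 17 genes, all but Cebpb, Egr3 and Klf6. With 1 library also left out, which needs age dropped so that a test remains, edgeR called 16 members without the day 13 control, 18 without the day 19 control, 0 without the day 13 mutant and 1, Dusp1, without the day 19 mutant. In these fits the spread comes only from the ages of the genotype that keeps both libraries, the 2 controls when a mutant is left out, and the lone library is assumed to vary like them. Values at each age without a test are those given above, and for all 17 genes they lay on the same side at both ages. Between days 13 and 19 none of the 37 genes passed (edgeR), beside 0.308% of all genes tested, with 3 members at an unadjusted p under 0.05 and 0 called by DESeq2. Within clusters, Hspa1a rose with age in cluster 0 (0.66, adjusted p = 0.0383, where 2.31% of genes were called) and Hspb1 in cluster 1 (0.88, adjusted p = 0.0298, where 0.515% were called), both by edgeR.

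Markers of other cells and states moved with genotype in the same sums. The 29 chondrocyte markers summed to 116766 and 110332 CPM in controls and to 54344 and 65807 in mutants, with none at 0. The 16 osteoblast markers summed to 3122 to 4123 CPM in controls and 10041 to 15836 in mutants, with 14 of 16 highest in both mutants, and the 19 fibroblast and tendon markers to 1377 to 1794 and 3905 to 4845. The 15 neutrophil markers summed to 65.2 and 204 CPM in controls and to 170 and 758 in mutants at days 13 and 19, with none at 0 and 5 of 15 highest in both mutants. The 13 macrophage markers summed to 29.2 and 29.3 CPM in controls and to 103 and 81.9 in mutants, with 10 of 13 highest in both mutants and 1 to 3 at 0 in each library. The 14 erythroid markers went the other way. They summed to 3423 and 13843 CPM in controls and to 1752 and 7365 in mutants, with 0 of 14 highest in both mutants. The 16 B cell markers summed to 57.9 and 219 CPM in controls and to 80.5 and 130 in mutants. Of the 8 monocyte markers, Fn1 alone, which skeletal cells also express, gave 856 to 2784 CPM, while Ccr2 was between 0.05 and 0.26 CPM. The part of these markers in the results was not tested.

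Since the class is made of different clusters in the genotypes, the clusters with at least 50 cells in every library were fitted apart. In cluster 0, whose leading genes Prg4 and Cilp mark the superficial zone, 8 members rose and 0 fell, where 6.44% of tested genes were called and 3.59% called higher. They were Cebpb, Dusp1, Gadd45g, Hspa1a, Hspa1b, Hspb1, Ier3 and Zfp36. Ier3 went from 331 to 816 CPM on day 13, then 498 to 1342 on day 19 in these cells (1.30 ± 0.199, adjusted p = 0.000127). Hspa1a went from 24.1 to 58.1 CPM and from 41.7 to 90.2, and Hspa1b from 10.7 to 29.7 and from 11.8 to 38.8 (1.51 ± 0.243, adjusted p = 0.000221). All 3 had both mutants above both controls.

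In cluster 1, led by Frzb, Sfrp5, Ucma and Matn1, 6 members rose (Btg2, Cebpd, Dusp1, Gadd45b, Ier3 and Klf10) and 0 fell, where 3.97% of tested genes were called and 2.29% called higher. Dusp1 was at 29.98 against 51.0 CPM on day 13, then 44.5 against 63.4 on day 19 (0.63 ± 0.149, adjusted p = 0.0459). In the hypertrophic cluster 5, led by Col10a1 and Ihh, 0 rose and Dnajb1 fell from 164 to 77.1 CPM and from 201 to 78.8 (-1.28 ± 0.190, adjusted p = 0.0485), where 0.533% of tested genes were called and 0.309% called higher. Dusp1 and Ier3 had fitted changes of 0.83 and 0.75 there and did not pass.

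Cycling chondrocyte-like cells, cluster 9, had the most calls, 18 higher and 3 lower of 36 tested, where 16.4% of tested genes were called and 9.24% called higher. Nr4a1 was at 35.6 against 177 CPM on day 13, then 30.1 against 97.9 on day 19 (1.88 ± 0.172, adjusted p = 9.73e-07). Klf2 was at 146 against 477 CPM, then 139 against 330 (1.33 ± 0.153, adjusted p = 1.13e-05), and Cebpb at 79.6 against 249, then 83.0 against 196. Fos, which did not pass over the class, rose in this cluster from 463 to 937 CPM and from 382 to 677 (0.77 ± 0.152, adjusted p = 0.00196). Atf3, Jund and Rhob fell.

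No call of the class passed in all of clusters 0, 1, 5 and 9. Junb, Egr3, Nr4a1, Klf6, Socs3 and Ier2 were called in none of clusters 0, 1 and 5. Clusters 8 and 22 could not be fitted apart. On day 13 cluster 8 gave 21733230 of 55739599 control UMIs of the class and 343806 of 18642042 mutant UMIs. Cluster 22 gave 72597 control and 7375317 mutant UMIs. The class calls thus also compare unlike clusters. Junb had fitted changes of 0.51, 0.34, 0.09 and 1.19 in clusters 0, 1, 5 and 9 and passed in cluster 9 alone, so its class value of 1.036 exceeds that in 3 of the 4 clusters. Jund had changes of -0.09, -0.52, -0.77 and -0.88 and passed in cluster 9 alone. Dnajb1 had changes of -0.04, -0.06, -1.28 and -0.40. Dusp1 and Ier3 were positive in all 4, at 0.63 to 1.14 and 0.66 to 1.30, and each passed in clusters 0, 1 and 9. The differences between clusters were not tested.

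**Figure D3:**
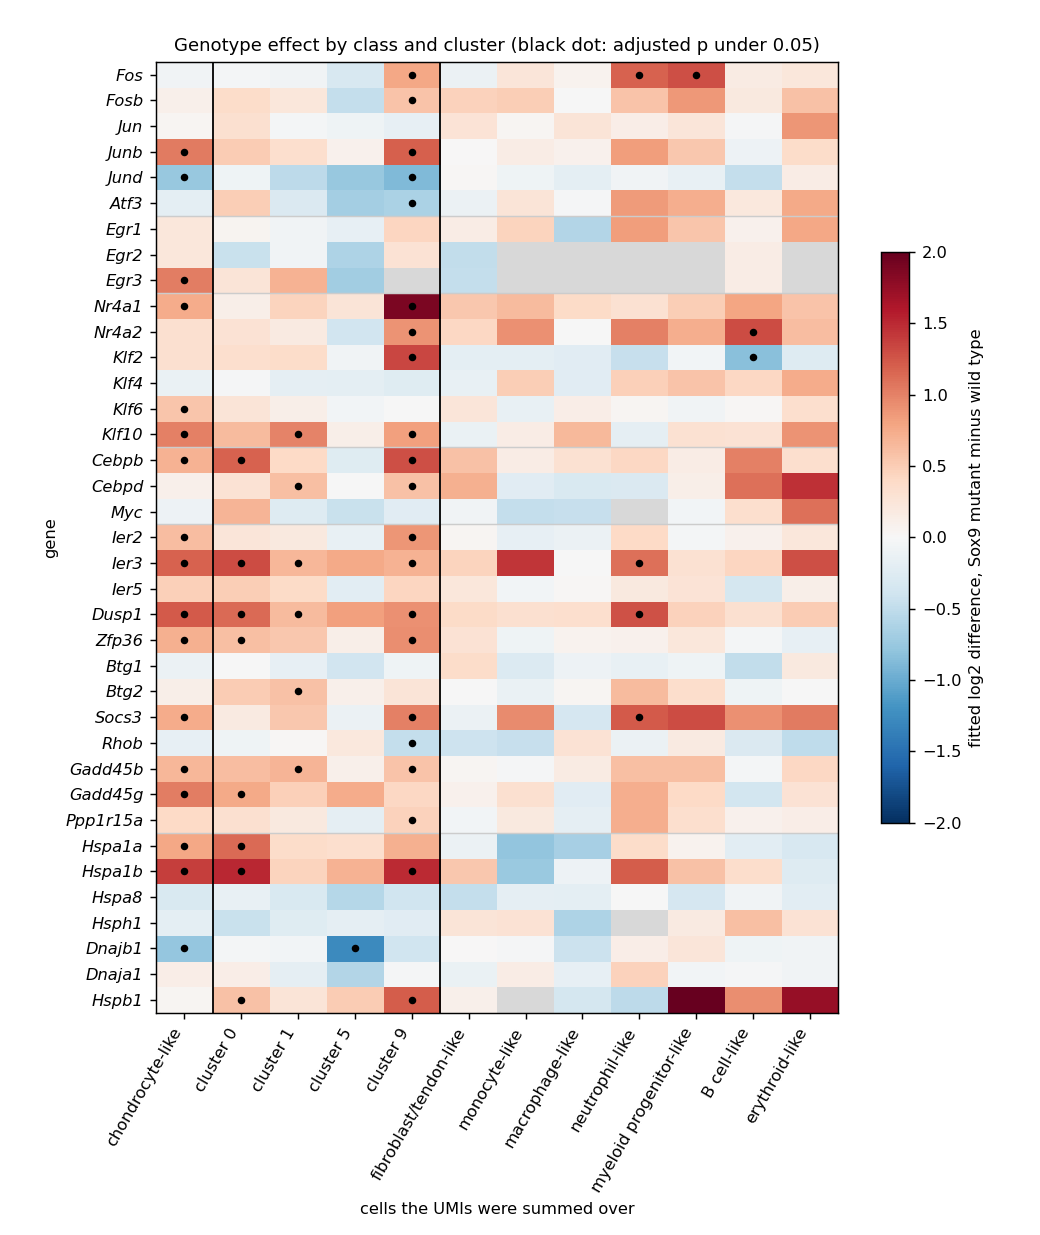
Fitted log2 difference between mutant and wild type for each of the 37 genes, one column for each class or cluster, on a colour scale that ends at 2 in either direction, with grey for genes not tested and a black dot for an adjusted p under 0.05. Cluster 9 holds 21 dots, the class 17, and the fibroblast and tendon, monocyte, macrophage and erythroid columns none.

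Cluster 22 and cluster 4, both nearly free of control cells, can only be set beside the controls of the class. Cluster 22 was within the class. Its 2 mutant libraries lay above both chondrocyte-like controls for 28 of the 37 genes, where 47.5% of all tested genes did so. Junb was at 881 and 863 CPM there and Ier3 at 952 and 1115, beside control means of 246 and 305. Gadd45g was at 316 and 369 CPM, beside 86.2.

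Cluster 4, led by Myoc and Pi15, had 1653 and 1503 mutant cells and 12 and 15 control cells and was left out of the class. Its 10 leading genes held 1 fibroblast and tendon marker and no chondrocyte marker. Those of clusters 9 and 22, which were kept, held no chondrocyte marker either, and cluster 4 had 23 chondrocyte markers 3-fold above blood cells, beside 18 in cluster 22. The class thus leaves out more mutant cells in cluster 4 than it holds. Its mutant libraries lay above both chondrocyte-like controls for 30 members, where 41.1% of all tested genes did so. Nr4a1 was at 172 and 163 CPM there, beside a control mean of 58.3, Klf2 at 354 and 442 beside 198, and Fosb at 513 and 576 beside 305. With cluster 4 added to the class, 20 members rose and 2 fell, where 23.8% of all tested genes were called, and all 17 genes named above were among the 22.

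The share of cells in which a gene was found was taken as well. For sparse counts this share rises with the mean level, so it cannot separate more expressing cells from more UMIs per cell. With each cell thinned to 2000 UMIs, a Junb UMI was found in 32.2% and 58.8% of control and mutant chondrocyte-like cells on day 13 and in 36.4% and 55.3% on day 19. Ier3 was found in 30.02% and 58.6% and then in 39.7% and 63.8%. In erythroid-like cells the Ier3 shares were 2.25% and 16.8% on day 13 and 2.93% and 8.38% on day 19. Dusp1 went from 7.30% to 21.5% and from 8.87% to 20.1%, and erythroid-like cells held Dusp1 UMIs in 13.6% to 23.3% of cells. Whether the erythroid-like shares come from free RNA or from the cells' own expression was not tested. Hspa1b was found in 1.87% and 4.49% and then in 2.17% and 6.08%, with 0.513% to 1.80% in erythroid-like cells. Fos was found in 46.8% and 54.4% and then in 43.1% and 47.7%. In erythroid-like cells the shares were 2.57% to 7.30% for Fos and 7.87% to 16.8% for Junb. Unthinned, the Junb shares were 69.8%, 90.6%, 80.1% and 88.6% in the same order, at median depths of 11764, 11363, 16728 and 10079 UMIs, and erythroid-like medians were 4577 to 7573 UMIs. Thinning left out 85, 26, 10 and 35 chondrocyte-like cells.

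Within the class the immediate early UMIs were spread over most cells. The median cell held 10 and 15 immediate early UMIs per 2000 in control and mutant on day 13 and 12 and 15 on day 19. The 10th percentile was 4.9 and 7, and then 6 and 7, and the 90th percentile 23 and 32, and then 27 and 32. The 10% of cells with the most such UMIs held 26.4% and 24.8% of them on day 13 and 25.4% and 23.95% on day 19. Heat shock UMIs had medians of 3, 3, 4 and 4 per 2000. Both percentiles of the immediate early sum were higher in the mutant cells at each age.

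Some immediate early genes were found together in single cells. Fos and Jun had a Pearson correlation of log values across thinned chondrocyte-like cells of 0.38, 0.46, 0.50 and 0.44 in control and mutant on day 13 and control and mutant on day 19, over 4110, 1426, 1015 and 1399 cells. Fos with Klf2 had 0.36, 0.39, 0.43 and 0.47, and Fos with Egr1 0.37, 0.45, 0.44 and 0.37. The median over all 435 immediate early pairs was 0.0442 to 0.0638 in the 4 libraries, that over the 21 heat shock pairs 0.00622 to 0.0311 and that over the 210 mixed pairs 0.0131 to 0.02403. The cells of a correlation share 1 library and differ in cluster, and the counts are sparse, so these values are a description.

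Related genes outside the 37 were taken from lists of other immediate early genes, other chaperones, NF-kB targets, the unfolded protein response, upstream factors and oxidative stress. Their counts are to be set beside the 18.3% of all tested genes that were called in these cells. The NF-kB early inflammatory genes, many of which share stimuli with the immediate early genes, showed the highest values. Of the 16 tested, 11 rose and 0 fell, with a median fitted change of 1.62, beside 0.01 over all genes. Il1b was at 1.22 against 6.44 CPM on day 13, then 0.521 against 8.63 on day 19, and Cxcl2, a neutrophil-attracting chemokine, at 1.24 against 7.78, then 2.08 against 19.5. Ccl4 was at 0.233 against 2.52 CPM, then 0.365 against 3.00. Tnfaip3, or A20, a brake on NF-kB, was at 1.22 against 10.8 CPM, then 1.62 against 9.23 (2.65 ± 0.251, adjusted p = 0.000495). Il1b and Cxcl2 lead the myeloid cluster 21, and the neutrophil marker sums that moved with genotype are given above. Whether free RNA from those cells contributed was not tested.

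Of 22 other immediate early genes tested, 4 rose and 3 fell, with a median of 0.10. Per1, a clock gene with an immediate early response, was at 15.8 against 44.4 CPM on day 13, then 15.7 against 43.8 on day 19 (1.27 ± 0.135, adjusted p = 0.000821). Fosl2, a FOS relative, was at 37.6 against 81.4 CPM, then 31.9 against 79.3, Nr4a3 at 5.33 against 14.2, then 6.93 against 14.3, and Irf1 at 6.80 against 24.5, then 10.7 against 20.6. The 3 that fell were Arc, Dusp5 and Trib1.

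The chaperone, unfolded protein and upstream lists had 4 of 22, 2 of 14 and 1 of 12 genes called, shares at or below that of all genes, so their counts are no result about the lists. Of 22 other heat shock proteins and co-chaperones 2 rose and 2 fell, with a median of -0.18. Hspb8 was at 4.503 against 11.5 CPM, then 9.22 against 15.5, and Dnajb4 at 31.8 against 53.5, then 33.0 against 54.0, while the mitochondrial chaperonin gene Hspd1 (203 against 178 CPM, then 281 against 179) and Fkbp4 fell. Of 14 genes of the unfolded protein response, Ddit3, which encodes CHOP, rose (25.1 against 44.2 CPM, then 20.9 against 44.1), Asns fell and 12 did not pass. Of 12 upstream factors, among which are the HSF, SRF and CREB genes, Crem alone rose (6.55 against 19.0 CPM, then 9.48 against 16.9) and 11 did not pass.

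Of 8 metallothionein and oxidative stress genes, 2 rose and 3 fell by genotype. Hmox1, haem oxygenase, was at 8.45 against 34.7 CPM on day 13, then 8.44 against 22.7 on day 19 (1.54 ± 0.170, adjusted p = 0.000998), and the NRF2 target Nqo1 fell from 17.1 to 8.64 and from 16.5 to 10.4. Metallothionein Mt2 rose with genotype and with age, from 52.8 and 100.0 CPM in control and mutant on day 13 to 99.5 and 223 on day 19 (age adjusted p = 0.0496). Mt1 also rose with age (adjusted p = 0.04996) and did not pass by genotype.

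**Figure D4:**
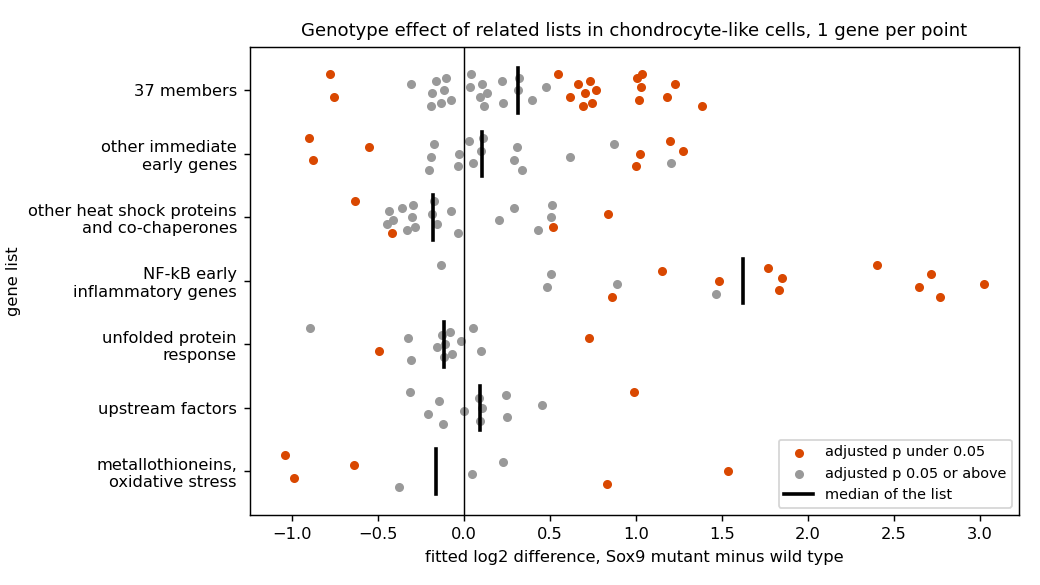
Fitted log2 difference between mutant and wild type in chondrocyte-like cells for the 37 members and each of 6 related lists, 1 point per gene, orange for an adjusted p under 0.05 and grey otherwise, with a black bar at each median. The NF-kB list lies to the right, with a median of 1.62, while the medians of the other related lists lie between -0.18 and 0.10.

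Over the 7 other cell classes tested, which hold fewer UMIs, 7 calls were made by genotype. Of 33 tested in neutrophil-like cells 4 rose (1.53% of genes tested there were called), of 37 in B cell-like cells 1 rose and 1 fell (2.11%), and of 35 in myeloid progenitor-like cells 1 rose (1.28%). None of 37 was called in fibroblast and tendon-like cells (0.976%), of 35 in macrophage-like (2.96%) and erythroid-like cells (1.29%), or of 34 in monocyte-like cells (0.0905%), where 8, 3, 9 and 5 members had an unadjusted edgeR p under 0.05. Ier3 missed the threshold in monocyte-like cells, at 343 against 930 CPM on day 13, then 367 against 993 on day 19 (edgeR, 1.44 ± 0.163, adjusted p = 0.0584). In erythroid-like cells Ier3 was at 19.4 against 67.1 CPM, then 17.5 against 47.3 (edgeR, 1.28 ± 0.260, adjusted p = 0.0737). Its fitted change in macrophage-like cells was -0.0035, and the genotypes overlapped there. Each class was fitted apart and needed 50 cells in every library, so endothelial-like, osteoblast-like, T and NK cell-like and plasmacytoid dendritic-like cells were not tested.

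Fos was the gene called in both neutrophil-like and myeloid progenitor-like cells. In neutrophil-like cells it was at 699 against 1537 CPM on day 13, then 1006 against 2147 on day 19 (1.18 ± 0.239, adjusted p = 0.0218). In myeloid progenitor-like cells it was at 120 against 332 CPM, then 165 against 359 (1.29 ± 0.168, adjusted p = 0.000879). Both mutants exceeded both controls in either class. The myeloid progenitor-like class is cluster 24, whose leading genes held 7 myeloid progenitor markers and 5 megakaryocyte markers. Prss34, Mcpt8, Pf4 and Ppbp were among those genes. Its cells richest in immediate early UMIs, cut off as for chondrocyte-like cells, held 44.1% and 27.2% of them on day 13. On day 19 they held 45.4% and 30.7%. Whether a change in the mix of cells contributed to the genotype differences of this class was not tested. In neutrophil-like cells Dusp1, Ier3 and Socs3 rose as well, Dusp1 from 264 to 381 CPM and from 164 to 592 (1.28 ± 0.270, adjusted p = 0.0258) and Ier3 from 266 to 597 and from 380 to 723. In B cell-like cells Nr4a2 went from 17.1 to 29.9 CPM and from 9.03 to 27.9. Klf2, which keeps lymphocytes quiescent, fell there from 242 to 113 and from 229 to 158 (edgeR, -0.83 ± 0.189, adjusted p = 0.0391). This class pools clusters 13, 16, 17 and 18 in unlike shares. Cluster 17, led by Ms4a1, was 121 of 335 control and 88 of 897 mutant cells on day 13. On day 19 it was 254 of 3157 and 238 of 1915. Whether the mix of clusters contributed to these differences was not tested. By age, Jun rose in neutrophil-like cells (1.11 ± 0.216, adjusted p = 0.0422, where 0.279% were called) and Cebpb in fibroblast and tendon-like cells (1.09 ± 0.157, adjusted p = 0.0483, where 0.293% were called). No member passed by age with edgeR in B cell-like (0.31% of genes called), erythroid-like (0%), macrophage-like (1.11%), monocyte-like (0%) or myeloid progenitor-like cells (0.836%), where 4, 11, 4, 2 and 7 members had an unadjusted p under 0.05. By the same edgeR fits, 20 of 37 members had an unadjusted p under 0.05 by age in fibroblast and tendon-like cells, beside 682 of 10250 genes. In neutrophil-like cells 6 of 33 did, beside 346 of 7526 genes. The immediate early sum of fibroblast and tendon-like cells was 6241 and 7555 CPM in control and mutant on day 13. On day 19 it was 10921 and 9681. DESeq2 called 0 members by age over all 7 classes.

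Whether the genotype difference itself differed between chondrocyte-like cells and another class was tested with a class by genotype term. Against fibroblast and tendon-like cells, which come from the same libraries, it differed for 14 of 37 members, 10 more positive and 4 more negative in chondrocyte-like cells, where 8.7% of all tested genes differed. The largest differences were 1.498 ± 0.398 for Egr3, 1.14 ± 0.231 for Klf10 and 1.02 ± 0.136 for Junb on the log2 scale. In fibroblast and tendon-like cells Junb overlapped between genotypes, at 408 against 410 CPM on day 13, then 750 against 709 on day 19. Klf10 was at 31.1 against 28.1 CPM, then 46.7 against 40.8. The more negative members were Btg1, Cebpd, Dnajb1 and Jund.

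Against the blood classes the counts were 11 of 37 for B cell-like cells (8 more positive), where 5.05% of genes differed, and 6 for erythroid-like cells (5 more positive, 4.05%). Macrophage-like and monocyte-like cells gave 6 each, all more positive in chondrocyte-like cells (2.84% and 3%). Dusp1 was among the more positive members against 5 of the 7 classes and Hspa1a against 5. Against myeloid progenitor-like cells 6 differed, 5 of them more negative (3.88%), and against neutrophil-like cells 3, Atf3, Dnajb1 and Fos, all more negative (2.11%). The difference for Fos was -1.39 ± 0.357 against neutrophil-like and -1.38 ± 0.251 against myeloid progenitor-like cells. These comparisons share the chondrocyte-like libraries.

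**Figure D5:**
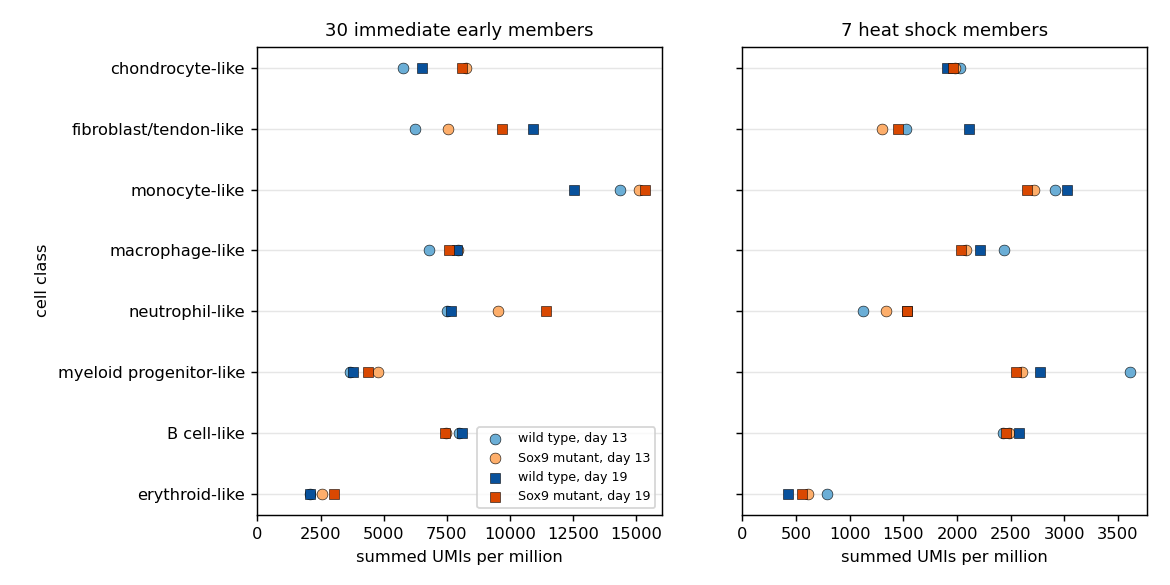
Summed CPM of the 30 immediate early members (left) and the 7 heat shock members (right) in 8 cell classes, 1 point per library. Of the 8 classes, monocyte-like cells had the highest immediate early sums, 12519 to 15341 CPM, and erythroid-like cells the lowest, 2070 to 3048 CPM.

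The immediate early sum averaged 14335 CPM in monocyte-like cells over the 4 libraries, 9032 in neutrophil-like, 8600 in fibroblast and tendon-like, 7743 in B cell-like, 7556 in macrophage-like, 7167 in chondrocyte-like, 4153 in myeloid progenitor-like and 2441 in erythroid-like cells. The ranges of neutrophil-like, fibroblast and tendon-like, B cell-like, macrophage-like and chondrocyte-like cells overlapped. The B cell-like class pools unlike clusters. Cluster 13 had 3326 to 4111 CPM, cluster 16 had 12951 to 15225 and cluster 17 had 13250 to 14946. Clusters 16 and 17, within the monocyte-like range, held 3048 and 701 cells. Cluster 13 held 941, and cluster 18, whose sum is not given, 1614. The unnamed myeloid cluster 21, led by Il1b and Cxcl2, had 18441 to 22862 CPM, at a low depth of 1397 to 1957 UMIs per cell. Heat shock sums averaged 2885 CPM in myeloid progenitor-like and 2827 in monocyte-like cells, 1969 in chondrocyte-like and 595 in erythroid-like cells.

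Chondrocyte-like cells had the highest mean of the 8 classes for Fosb, Jund, Klf4, Dnajb1 and Hspb1. Hspb1 averaged 136 ± 24.8 CPM there (SD, n = 4 libraries) and 51.2 ± 11.9 in fibroblast and tendon-like cells, the next class, without overlap. Klf4 averaged 542 ± 71.3 and 493 ± 150 CPM in the same classes, which overlapped, as did Fosb at 342 ± 47.2 and 297 ± 108. Jund averaged 975 ± 228 CPM, with B cell-like (943 ± 171) and fibroblast and tendon-like cells (887 ± 158) within its range. Dnajb1 averaged 129 ± 31.1 CPM, and both its mutant libraries, at 102 and 105 CPM, lay within the B cell-like range of 89.97 to 111 CPM. Of these genes, Jund and Dnajb1 fell in the mutant and none was called higher. Among the genes that rose, Junb, Nr4a1, Klf10, Cebpb, Ier3, Dusp1, Zfp36 and Hspa1a had their highest mean in monocyte-like cells. Ier2 and Gadd45g had it in neutrophil-like cells and Egr3, Gadd45b and Hspa1b in B cell-like cells. Klf6 had it in macrophage-like and Socs3 in fibroblast and tendon-like cells.

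Tested within libraries against the mean of the other 7 classes, 25 of the 37 members were called in chondrocyte-like cells, 19 higher and 6 lower, beside 74.3% of all genes tested, so the count is near the background. The largest differences were 3.73 for Hspb1, 2.29 for Klf4, 1.60 for Fosb and 1.502 for Egr1 on the log2 scale. Btg2, Dusp1, Junb, Klf6, Ppp1r15a and Zfp36 were lower than in the other classes, Zfp36 by -1.62 and Dusp1 by -1.44. Of these 6, Dusp1, Junb, Klf6 and Zfp36 were among the genes that rose in the mutant.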

How the data were processed

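Single cells of the 4 libraries were captured on the Chromium Single Cell v3 platform, and the deposited matrices hold UMI counts per gene and barcode made by the authors with Cell Ranger 3.1.0, per the file headers, on mm10, per the submitters' processing notes. Libraries held 70507107 to 76080803 UMIs. A barcode needed 500 detected genes and a mitochondrial share of 15% or less. Doublets were taken out at a fixed Scrublet score of 0.25, chosen after the automatic threshold marked almost no barcode in 2 libraries.

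Cells were clustered with scanpy 1.11.5 (2000 variable genes without the 37 members, 30 principal components, 15 neighbours, Leiden resolution 1) and named from marker lists, with at least 3 markers among 25 leading genes. UMIs were summed per class and library and fitted with edgeR 4.0.16 (R 4.3.3; TMM, quasi-likelihood test, genotype and age as additive terms, 4 libraries, 1 residual degree of freedom, Benjamini-Hochberg adjustment over all genes tested). DESeq2 1.42.0 was an alternative. Single-age ratios carry exact 95% intervals for counting error only. On simulated counts for the chondrocyte-like comparison, 98% of 2-fold changes were recovered at a dispersion of 0.01 and 27% at 0.05, with 10 and 7 false calls. The common dispersion fitted to the data, 0.0188, lies between these settings and was not simulated. Few genes were changed and no difference in cluster mix was simulated, so the false calls need not carry over to the data.

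The members and lists were chosen with earlier results of these data known. Named genes were the called members, the 3 highest of each member group, the 3 largest ratios each way at each age, up to 4 called genes of a list, and up to 3 called members each way in another class; other values were chosen after they were seen. Other alternatives were normalization, the low-count filter, cell filters, resolution, thinning to 2000 UMIs and leaving out each library.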

Additional observations from a re-analysis of the deposited data

Results flagged for a closer look

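The genotype difference of chondrocyte-like cells differed from that of another class, by edgeR's class by genotype term, for 14 members against fibroblast and tendon-like cells. The same test gave 11 members against B cell-like cells and 3 against neutrophil-like cells. It gave 6 members each against erythroid-like, macrophage-like, monocyte-like and myeloid progenitor-like cells. Against fibroblast and tendon-like cells the differences of differences were 1.498 for Egr3, 1.14 for Klf10 and 1.02 for Junb on the log2 scale. Their adjusted p values from edgeR were 0.0271, 0.00468 and 0.000142. Egr3 in fibroblast and tendon-like cells was low, at 11.3 (control) against 5.86 CPM (mutant) on day 13, then 9.94 against 10.8 on day 19.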

How the results depend on the processing

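The 17 calls by genotype in chondrocyte-like cells became 8, 6 and 1 in clusters 0, 1 and 5 alone, and 0 to 18 when 1 library was left out with the other factor dropped, with 0 calls without the day 13 mutant. Those fits rest on the 2 ages of 1 genotype for the spread. The remaining alternatives gave 14 to 25 calls. The median fitted change of 0.32 ran from 0.22 to 0.31 with 1 library left out. By age the count of 0 became 1 in cluster 0 alone (Hspa1a) and 1 in cluster 1 alone (Hspb1), and the median ran from -0.03 to 0.05. The median day 13 ratio of 0.59 became 0.66 with a minimum of 200 genes, 0.79 at resolution 0.5, 0.30 with TMM scaling and 0.78 with cluster 4 added. The day 19 ratio of 0.39 became 0.58 at resolution 0.5, 0.22 with TMM scaling, 0.27 with thinned cells, 0.49 over all skeletal-lineage cells and 0.60 with cluster 4 added. In the other classes the 7 calls by genotype became 3 with DESeq2 and 19 with no filter, and the 2 by age became 4 with DESeq2 size factors, 0 with DESeq2, 23 with no filter and 4 with the members kept for clustering. The added alternatives were chosen after seeing the data: cluster 4, and the library left out with the other factor dropped. Of the tested values for single genes under the alternatives, 483 had the same outcome as in the main fit, 48 lost a call and 24 gained one. The 483 include genes called in neither fit, and only the 17 called genes could lose a call. Another 148 values, with 1 library left out and age kept, have no residual degrees of freedom and no test, and the 68 of called genes among them kept their direction. No paired analysis was possible because each group has 1 library, so groups share fewer than 2 replicate numbers.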
